A study of Danio rerio with 5 samples.

Results

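The cells described here are those of the zebrafish anterior segment atlas that carried transcripts of cartilage collagens. A cell was taken when it had a unique molecular identifier (UMI, 1 counted RNA molecule) of at least 2 of the 4 genes col2a1a, col9a2, col9a3 and cnmd, and when these 4 genes made up at least 0.2% of its UMIs. In addition, krt5, krt91 and pfn1 together had to stay under 4% of the UMIs and scinla under 1%, which leaves out cells rich in genes of the corneal epithelium and of the annular ligament. Of 12234 cells, 864 (7.06%) were members. The members were chosen by the measured levels of these genes, so those levels are given only as a description. The study sorted GFP+ cells by FACS from dissected eyes of pooled embryos of the transgenic line Tg[foxc1b:GFP], whose listed genotype is AB, at 48, 72, 96, 120 and 144 hours post fertilisation (hpf). No mutant was compared, and every group carried the same transgene, in which sequences of foxc1b drive GFP. Per the methods, embryos were kept from 24 h on in medium with 1-phenyl 2-thiourea (PTU), which blocks melanin synthesis. Embryos raised without PTU are named only for tissue sections at 120 hpf, and no sequenced group is described as raised without it. Each time point was made of 2 droplet libraries, called A and B, which were taken from the names in the cell tables. GFP does not mark cartilage as such, so the cells seen here are only those that passed the sort.

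Cartilage matrix is a mesh of fibrils of type II, type IX and type XI collagen filled with proteoglycans, and matrilins such as matn1 and matn4 link these parts. The transcription factor sox9a, together with sox5 and sox6, drives the collagen genes, while cnmd encodes chondromodulin, a secreted inhibitor of vessel growth that is made by chondrocytes and tendon cells. In zebrafish, cartilage supports the skull and jaws, the pectoral fin and the gills, and a ring of cartilage lies in the sclera around the eye.

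The share of members differed between libraries of the same time point, most widely at 48 hpf. Members were 9.38% and 2.51% of the cells in 48 hpf A and B (79 and 23 cells), 14.0% and 18.4% at 72 hpf (101 and 121 cells), 14.2% and 12.5% at 96 hpf (68 and 182 cells) and 6.33% and 3.77% at 120 hpf (120 and 104 cells). At 144 hpf, library A had 66 members (2.74%), while library B had 0 of 102 cells, which allows a share of up to 2.94% by a floor of 3 counts and 3.55% by the exact binomial bound. The highest shares stood at 72 and 96 hpf and the lowest at 144 hpf. The A and B libraries at 48 hpf differed beyond their exact binomial 95% intervals of 7.50 to 11.6% and 1.60 to 3.74%. Those at 120 hpf did too, with intervals of 5.27 to 7.52% and 3.09 to 4.55%. At 72 and 96 hpf the intervals of A and B overlapped. These intervals cover counting error only, and what the sort let through cannot be told apart from how many such cells the eyes held. Library 144 hpf B shared 61 of its 102 cell barcodes with library 48 hpf B. No barcode belonged to members of more than 1 library, which could not be otherwise for 144 hpf B, as it held no member. Whether a member's barcode recurred in a non-member of another library was not counted. The results by time thus rest on 9 libraries, with a single one at 144 hpf.

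**Figure D1:**
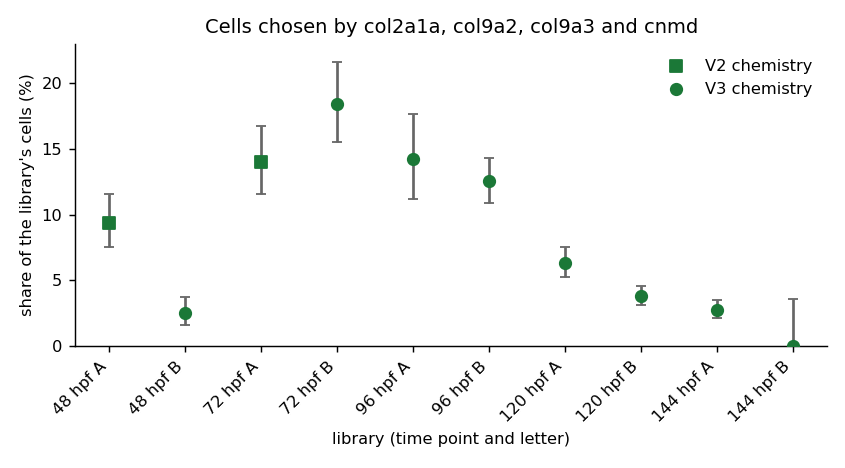
Share of each library's cells that were members (y axis, percent), by library (x axis). Points are the shares, squares V2 and circles V3 chemistry, and bars are exact binomial 95% intervals. The shares lay between 12.5% and 18.4% at 72 and 96 hpf and at 6.33% or below from 120 hpf on.

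The median member held 1707 UMIs, with medians of 817 to 2188 across the 9 libraries, against 2486 UMIs in other mesenchymal cells. These other mesenchymal cells were non-members with a UMI of at least 2 of pmp22a, dcn, lum, twist1a and prrx1b under the same limits, and they numbered 1361. All other cells are the 11370 non-members of any kind. Libraries 48 hpf A and 72 hpf A carry a V2 chemistry tag and the rest V3. A run tag is common to 72 hpf B and 96 hpf A, another to 96 hpf B and 120 hpf A, and a further one to 120 hpf B and 144 hpf A. The study describes independent biological replicates at each time point, while GEO's labels do not describe A and B, and p-values measure the spread between these libraries.

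Whether the name of scleral and cranial cartilage fits these cells was not tested. Of the 864 members, 574 had all 4 of the choosing genes, 166 had 3 and 124 had 2. These counts describe the rule and are no test of the name. Matrilin 1, an abundant matrix protein of mature cartilage, was not used by the rule. It was at 0 CPM (UMIs scaled to a common library depth) in both 48 hpf libraries, at 304 and 6308 CPM at 72 hpf, at 4796 and 928 CPM at 96 hpf, at 391 and 3835 CPM at 120 hpf and at 193 CPM at 144 hpf. No UMI of matn1 was thus counted in members of 48 hpf, and A and B of 72, 96 and 120 hpf differed from each other by several fold. Single cells weighed heavily in these levels. In 96 hpf A a cell had matn1 at 12.7% of its UMIs and the next highest was at 0.24%. The highest cells of 72 hpf B were at 6.91, 7.33 and 10.3%, and that of 120 hpf B at 6.04%. Of the members' matn1 UMIs, 82.8% lay in cluster 7, which is described below. The regulator sox9a was at 13.7 and 747 CPM at 48 hpf, 19.6 and 269 CPM at 72 hpf, 152 and 281 CPM at 96 hpf, 206 and 198 CPM at 120 hpf and 59.3 CPM at 144 hpf. Both V2 libraries were the low ones, and no order with time was seen. The study itself reported higher col2a1a, col9a2, cnmd, matn4 and irx1b at 144 hpf in its cluster of corneal endothelium and stroma. It also placed matn4 among genes of the corneal endothelium. The cells are therefore called by their choosing genes, the col2a1a, col9 and cnmd cells.

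Several other genes, though not all, were higher where the choosing genes filled more of a cell's RNA. In 319 members the 4 genes made up 0.2 to 1% of the UMIs, in 339 they made up 1 to 5%, and in 206 they made up 5% or more. Across these bands, matn1 stood at 249, 1208 and 7768 CPM, matn4 at 2099, 6659 and 26351 CPM, otos at 208, 1418 and 11886 CPM and sox9a at 90.7, 173 and 391 CPM. Each of these genes was highest in the top band. For matn1 these sums rested on few cells, as 19 of the members held 83.0% of its UMIs. By contrast, fgfbp2b was highest in the middle band, at 778, 2772 and 1632 CPM. The collagen gene col9a1b was lowest there, at 244, 139 and 3494 CPM. In the low band, fabp7a, a fatty acid binding protein of neural progenitors, was at 1359 CPM and the pigment enzyme tyrp1b at 7193 CPM, against 66.1 and 5.29 CPM in the top band. The 35 members just inside the limit, at 0.20 to 0.25%, had matn1 at 0 CPM, fabp7a at 8241 CPM and tyrp1b at 10388 CPM. The 57 cells with 2 or more of the genes just outside it, at 0.15 to 0.20%, had matn1 at 5.22 CPM, fabp7a at 674 CPM and tyrp1b at 12094 CPM. Summed over the cells on each side of the limit, tyrp1b was thus high and matn1 hardly present, while matn4 was at 1282 CPM inside the limit and 883 CPM outside it. How many of these cells carried tyrp1b or fabp7a was not counted. Among the members tyrp1b was concentrated in 32 cells, at 93749 CPM against 123 CPM in the other members.

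Grouping the members by their whole expression gave 9 clusters, which were built after the values had been seen and are described without a test. They are numbered by size and called by their leading genes, and none is given a cell type name. Cluster 2 (132 cells) was led by the collagen genes col9a1b and col11a2, by otos, which encodes a small secreted protein known from the inner ear, and by ucmab, a protein of the growth plate and of resting chondrocytes. In it the choosing genes filled a median of 12.9% of the UMIs, and col2a1a reached 73291 CPM and matn4 32625 CPM. It also held lum and dcn, small proteoglycans of corneal stroma and fibrous tissue, at 3255 and 2017 CPM, while matn1 was at only 115 CPM. None of its cells came from 48 hpf, and it was drawn from all 7 of the later libraries with members.

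Cluster 7 (54 cells) was of another kind. It was led by mia, fn1b, f13a1b, clic2 and matn1, with matn1 at 21063 CPM and fgfbp2b, a protein that releases FGF from the matrix, at 13361 CPM. The limb factor tbx5a, which is needed for the pectoral fin in zebrafish, was at 418 CPM, and hoxa13b, hoxd9a and hoxd12a were at 273, 171 and 190 CPM. In contrast, lum was at 0 CPM and dcn at 12.7 CPM. A UMI of tbx5a was found in 33 of the 54 cells, and in 2, 1 and 3 cells of clusters 4, 8 and 9. Outside the members it was found in 10 of 1361 other mesenchymal cells (0.735%) and 138 of the 11370 non-members (1.21%). A UMI of any of 22 posterior hox genes of paralogue groups 9 to 13 was found in 44 of the 54 cells (81.5%), against 16 of 1361 other mesenchymal cells (1.18%) and 84 of the 11370 non-members (0.739%), at median depths of 2604, 2486 and 2562.5 UMIs. All but 3 of the 47 members with such a UMI lay in this cluster. Its cells came from 72 hpf B (4), 96 hpf A (1), 96 hpf B (25), 120 hpf A (5) and 120 hpf B (19). They thus spanned 3 run tags, and 3 of the 54 were called doublets. The summed level of 15 epithelial genes was also highest here, at 14046 CPM, against at most 5031 CPM in any other cluster, and its part in these values was not tested.

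Cluster 6 (108 cells) carried the genes that set position along the jaw. Its leading genes were barx1, which promotes cartilage over joint in zebrafish, at 685 CPM, the ventral arch factors dlx4a and dlx5a at 522 and 560 CPM, and gsc at 560 CPM. It also led in nkx3-2, the jaw joint factor, at 455 CPM, and lhx6 at 155 CPM. In the other clusters barx1 reached at most 31.7 CPM and dlx5a at most 65.5 CPM. This cluster had the highest col1a1a, at 10814 CPM, and the only UMIs of col10a1a, all 16 in 1 cell. Its cells came from 72 to 120 hpf, 21 and 41 of them from 72 hpf A and B.

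Clusters 1, 3 and 5 were led by neither jaw nor limb genes. In cluster 1 (162 cells), foxc1a and foxc1b were at their highest, 1431 and 1230 CPM, beside the water channel aqp3a at 6921 CPM and the endothelin receptor ednraa at 1850 CPM. The summed level of 12 vessel and mural cell genes was also highest in cluster 1, at 3026 CPM, against at most 1009 CPM in any other cluster. Cluster 5 (112 cells) was led by cilp, a protein of the cartilage intermediate layer, at 399 CPM, and by angptl7, a secreted protein of the cornea and outflow tissue, at 4070 CPM. Cluster 3 (117 cells), led by thy1, osr1 and aldh1a2, held 38 of the 79 members of 48 hpf A and 57 of the 101 of 72 hpf A, which are the V2 libraries. Other clusters held these foxc1 factors of the mesenchyme around the eye as well, foxc1a and foxc1b being at 887 and 611 CPM in cluster 3, 631 and 403 CPM in cluster 5 and 937 and 900 CPM in cluster 2. In all 3 clusters matn1 was at 131 to 481 CPM.

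Cluster 4 (116 cells) was led by genes of the cell cycle, with top2a at 365 CPM and mki67 at 254 CPM, and by fabp7a at 2510 CPM. It took in 41 of 79 and 22 of 23 members at 48 hpf, and 5 of its cells were called doublets, of 10 among all members. Clusters 8 and 9 held some cartilage genes and lacked others, so a cartilage name was doubtful there. In them col9a1b, not used by the rule, was at 1835 and 1179 CPM. Apart from cluster 2, the remaining clusters had it at 139 CPM or less. The choosing gene col9a2 was at 1801 and 1498 CPM, while col9a1a was at 0 CPM in both. In cluster 8 (32 cells) the pigment genes tyrp1b and dct stood at 93749 and 39783 CPM, cnmd was at 17.0 CPM and both matn1 and sox9a were at 0 CPM. These cells came from 72 hpf B (14) and 96 hpf A (18) alone, which share a run tag. Cluster 9 (31 cells) was led by zgc:114181, slc6a6b and ggctb and also held the eye field factors rx1 and pax6a, at 494 and 653 CPM, with cnmd and matn1 at 0 CPM. Together they make up 63 members, and results by time are given with and without them where they matter.

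**Figure D2:**
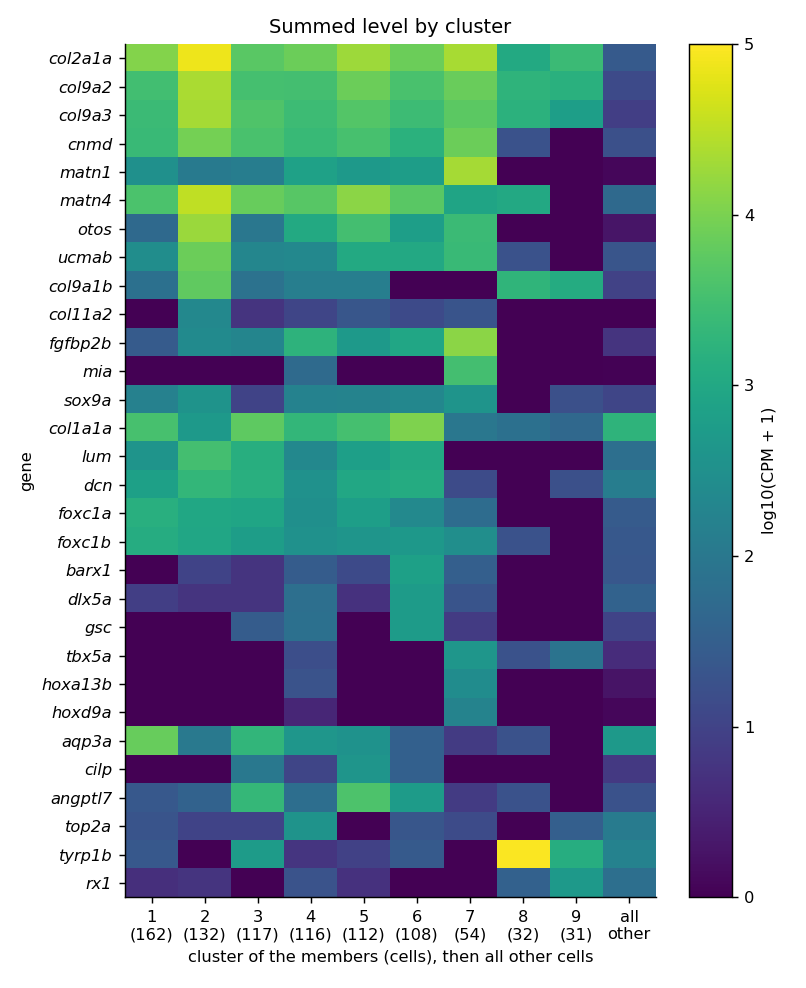
Level of each gene (rows) in the 9 clusters of the members (columns, number of cells in parentheses) and in all other cells (last column), as log10(CPM + 1) from summed UMIs. Cluster 2 is highest in otos, ucmab and col9a1b, cluster 7 in matn1, fgfbp2b, tbx5a and hoxa13b, cluster 6 in barx1 and dlx5a, and cluster 8 in tyrp1b.

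Of the genes with a mean of at least 100 CPM in the members, otos and matn1 had the highest mean log2 ratios to other cells. For matn1 this mean takes in both 48 hpf libraries, where the members held 0 UMIs and the ratio rests on the 0.5 counts added. matn1 made up at least 1% of the UMIs in 19 members, and these 19 cells held 83.0% of all matn1 UMIs of the members. otos made up at least 1% in 106 members, which held 83.9% of its UMIs. Of the 19 matn1-rich cells 4 were also otos-rich, against 12.3% of all members, and these 4 cells held 33.8% of the matn1 UMIs and 6.96% of the otos UMIs. Both limits were picked with the values in view. The 19 matn1-rich cells came from 72 hpf B (7), 96 hpf A (1), 96 hpf B (4), 120 hpf A (1) and 120 hpf B (6), whereas otos-rich cells were found in all 7 libraries from 72 hpf on. Of the otos-rich cells, 94 of 106 had a UMI of lum or dcn, against 1 of the 19 matn1-rich cells. A tbx5a UMI was present in 8 of the 19 and in 0 of the 106, against 138 of the 11370 non-members (1.21%). The matn1-rich cells were the deeper ones, with a median of 3172 UMIs against 1616 in the otos-rich cells. Most UMIs of matn1 thus came from a small number of cells. By cluster, cluster 7 held 82.8% of its UMIs and cluster 2 held 68.0% of those of otos.

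**Figure D3:**
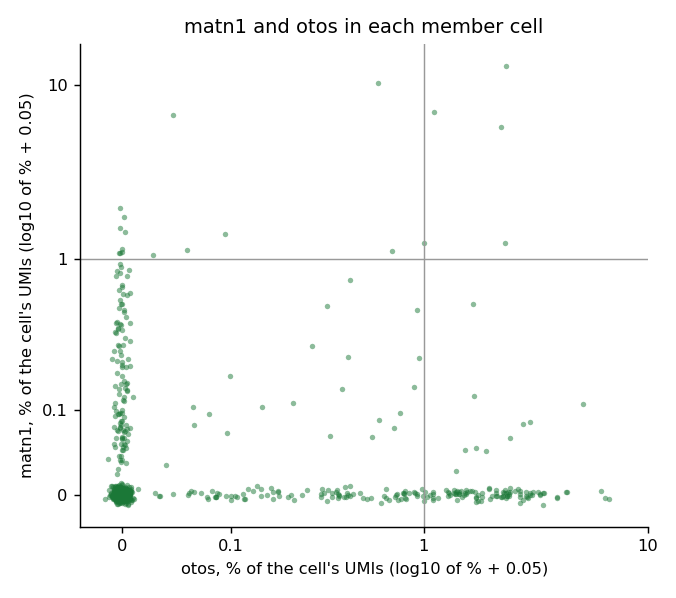
Share of each member's UMIs taken by otos (x axis, percent) and by matn1 (y axis, percent), both drawn as log10 of the percent plus 0.05, with a small random shift so that cells at 0 can be seen. Each point is 1 of the 864 cells and the lines mark 1%. There are 4 cells past both lines, 19 past the matn1 line and 106 past the otos line.

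Compared with the other cells of the same libraries, the members were set apart by matrix genes that the rule did not use. These ratios are a description, since expression chose the cells. Of matn1, 4011 UMIs lay in the members and 14 in all other cells of the 9 libraries, an 8473-fold difference in CPM, and of otos 5691 and 49 UMIs, a 3435-fold difference. The secreted protein mia, known from cartilage and melanoma, had 529 UMIs in the members and 3 elsewhere. Of the fibril collagen col11a2, all 63 UMIs were in members, which makes it at least 621-fold higher when a floor of 3 counts over all other cells is used. When every cell was thinned to 500 UMIs, matn1 was seen in 12.6% of the members and in 0.0355% of all other cells, and otos in 22.5% and 0.0799%. Without thinning the shares were 18.8% and 0.123% for matn1 and 26.3% and 0.343% for otos.

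The 20 genes with the highest mean log2 ratio to all other cells were taken among those with a mean of at least 100 CPM in the members. They also held the 4 choosing genes, col9a1a, col9a1b, matn4, fgfbp2b, ucmab, coch, irx1b, cthrc1a, prss35, col8a2, bmper, col27a1b and angptl7. Of these, coch is an extracellular protein of the inner ear and of the eye's outflow tissue, cthrc1a a secreted protein of collagen matrix, and bmper a binder of BMPs. matn4 was higher in the members by 6.95 ± 2.01 on the log2 scale (SD, n = 9 libraries) and bmper by 5.37 ± 1.0, both above in 9 of 9 libraries. Over other mesenchymal cells, the ratios were 4.83 ± 0.92 for matn4 and 3.48 ± 0.71 for bmper.

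The cells were also rich in foxc1b, the gene of the transgene, and in its close relative foxc1a. foxc1b was at 352 and 645 CPM in members at 48 hpf, 695 and 476 CPM at 72 hpf, 802 and 563 CPM at 96 hpf, 792 and 481 CPM at 120 hpf and 452 CPM at 144 hpf, with a mean of 584 CPM, against means of 110.5 CPM in other mesenchymal cells and 30.4 CPM in all other cells. It was higher than in other mesenchymal cells by 2.4 ± 0.54 on the log2 scale, and foxc1a by 2.04 ± 0.49, each in 9 of 9 libraries. foxc1b moved little across libraries, and its slope with time was 0.17 ± 0.14 log2 per 24 h (edgeR adjusted p = 0.47). Of the chondrogenic regulators, sox9a, sox5 and sox6 averaged 216, 30.4 and 113 CPM in the members, against 26.9, 2.54 and 20.6 CPM in other mesenchymal cells. Of 24 listed genes of hypertrophy and mineralisation, only sparc and enpp1 reached 50 UMIs in the members. The collagen gene col10a1a had 16 UMIs in the members and 2585 in other mesenchymal cells. In contrast, sparc, a collagen-binding matrix protein made by many cells, was at 2616 to 13282 CPM in the members and higher than in other mesenchymal cells in 9 of 9 libraries, and the summed level of the list followed it, at 2650 to 13350 CPM against 1386 to 6468 CPM.

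To see which genes changed over development, UMIs of the members were summed per library and a slope per 24 h was fitted with edgeR's quasi-likelihood test. Of 3602 genes with at least 50 UMIs, 164 (4.55%) rose and 206 (5.72%) fell, together 370 (10.3%). With the size factors of DESeq2 in the same fit the split was 193 rising and 156 falling, and with DESeq2 itself it was 346 and 221. The median slope over all genes was 0.01 log2 per 24 h. The count rested on few libraries: 121 genes were called without 48 hpf A, 214 without 120 hpf A and 118 without both 48 hpf libraries. A test of any difference between the 5 time points called 78 genes (2.17%), and this count ranged from 17 without 48 hpf A to 323 without 72 hpf B. Since all members of 48 hpf lay in clusters 3 and 4, a change within cells and a change in the mix of cells cannot be told apart from these sums.

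The clearest group among the lists was that of collagen folding and export, genes of the endoplasmic reticulum and of the vesicles that carry procollagen to the Golgi. Of 27 tested, 17 fell and 0 rose, against 5.72% falling among all genes, and the median slope of the list was -0.61 against 0.01 over all genes. The chaperone hspa5 (BiP) was at 796 and 713 CPM at 48 hpf, 925 and 1061 CPM at 72 hpf, 388 and 274 CPM at 96 hpf, 92.6 and 162 CPM at 120 hpf and 29.6 CPM at 144 hpf. The 4 earliest libraries all lay above the 5 later ones. Its slope was -1.0 ± 0.20 log2 per 24 h (SE, edgeR adjusted p = 0.0095). Another chaperone of that compartment, hsp90b1, was at 682 and 747 CPM at 48 hpf, 597 and 986 CPM at 72 hpf, 296 and 243 CPM at 96 hpf, 139 and 53.9 CPM at 120 hpf and 22.2 CPM at 144 hpf. The groups up to 72 hpf and from 96 hpf again did not overlap, and the slope was -1.08 ± 0.19 (edgeR adjusted p = 0.0051).

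Other members of the list fell by similar amounts. The disulfide isomerase pdia6 had a slope of -0.85 ± 0.15 (edgeR adjusted p = 0.0046) and the calcium-binding chaperone calr one of -0.89 ± 0.17 (0.0076). Of the prolyl hydroxylases that stabilise the collagen helix, p4ha1b had a slope of -1.01 ± 0.25 (0.022), while p4hb, at -0.58 ± 0.27, missed the threshold (0.21). The COPII coat gene sec13 had a slope of -1.10 ± 0.25 (0.016) and the cargo receptor gene tmed2 one of -0.61 ± 0.13 (0.012). The collagen prolyl isomerase ppib, the most abundant of the list, fell less, by 0.52 ± 0.15 on the log2 scale per 24 h (0.041). The collagen chaperone serpinh1a, at -0.39 ± 0.27, missed the threshold (0.38). The members called also included p4ha2, pdia3, pdia4, calr3b, kdelr2a, kdelr2b, sar1b, fkbp10b and crtap.

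The count of falling genes in this list moved with the libraries, and the median slope stayed negative under the 19 alternatives. Negative slopes were 23 of 26 without 72 hpf B, 24 of 27 without 144 hpf A and 27 of 33 with no filter on low counts. The count of genes called as falling was 5 without 48 hpf A, 11 without 72 hpf A, 11 without 72 hpf B, 10 without 120 hpf A, 9 without 120 hpf B and 7 without 144 hpf A. Without both 48 hpf libraries 11 fell and the median was -0.86. Without the V2 libraries 5 fell, and 27 of 27 slopes were negative. The genes hspa5, hsp90b1 and pdia6 passed under all 19 alternatives, while the call of ppib was lost under 14 of them.

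Summed over the 33 genes of the list with a UMI, the level in the members was 10745 and 9546 CPM at 48 hpf, 11952 and 12152 CPM at 72 hpf, 5936 and 4795 CPM at 96 hpf, 3430 and 2747 CPM at 120 hpf and 1453 CPM at 144 hpf. In every library this sum was higher in the members than in other mesenchymal cells and in all other cells, and the gap was widest at 48 and 72 hpf. The lower sums at later times were also measured inside single clusters. In cluster 2 the sum was 9598 and 11770 CPM in the 72 hpf libraries and 1636 to 5197 CPM in the 3 libraries from 120 hpf on. In cluster 6 it was 8981 and 10115 CPM at 72 hpf and 2410 and 2509 CPM at 120 hpf. In cluster 1 it was 11155 CPM in the 12 cells of 72 hpf B and 1621 to 3477 CPM from 120 hpf on. These values within clusters, from libraries with at least 5 cells of the cluster, carry no test and were added after the list had been seen to fall.

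Outside the members the list fell too. In other mesenchymal cells 10 of 28 tested genes fell and 0 rose (7.55% of all genes fell and 7.08% rose there), with a median slope of -0.43, and in all other cells 3 of 31 fell and 0 rose (0.413% and 0.741% of all genes), with a median of -0.30. The slope of hspa5 was -0.77 ± 0.18 in other mesenchymal cells (edgeR adjusted p = 0.016) and that of hsp90b1 -0.75 ± 0.20 (0.025). Whether the members fell more steeply was tested gene by gene within libraries, and 0 of 3526 genes differed in slope from other mesenchymal cells by edgeR. Counts simulated for this test had a fixed spread and no library or batch effect. In them it recovered 14.5% of genes with a slope difference of 0.5 log2 per 24 h and 85.3% at 1. It could thus miss small differences, and how many larger ones it finds in noisier data was not tested. In the measured data vcanb, at a difference of -1.57 ± 0.29, was not called (edgeR adjusted p = 0.057). At an unadjusted p under 0.05 there were 371 genes, the smallest adjusted p was 0.057, and DESeq2 called 32 of its 2910. One library or the choice of cells changed this count: it was 5 without 72 hpf A, 2 without 96 hpf A, 16 without 96 hpf B and 19 when the choosing genes had to reach 1% of UMIs. For the collagen folding list, the median difference in slope was -0.18, with 26 of 27 negative and none called. Over all genes the median was 0.02, with 1579 of 3526 negative.

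**Figure D4:**
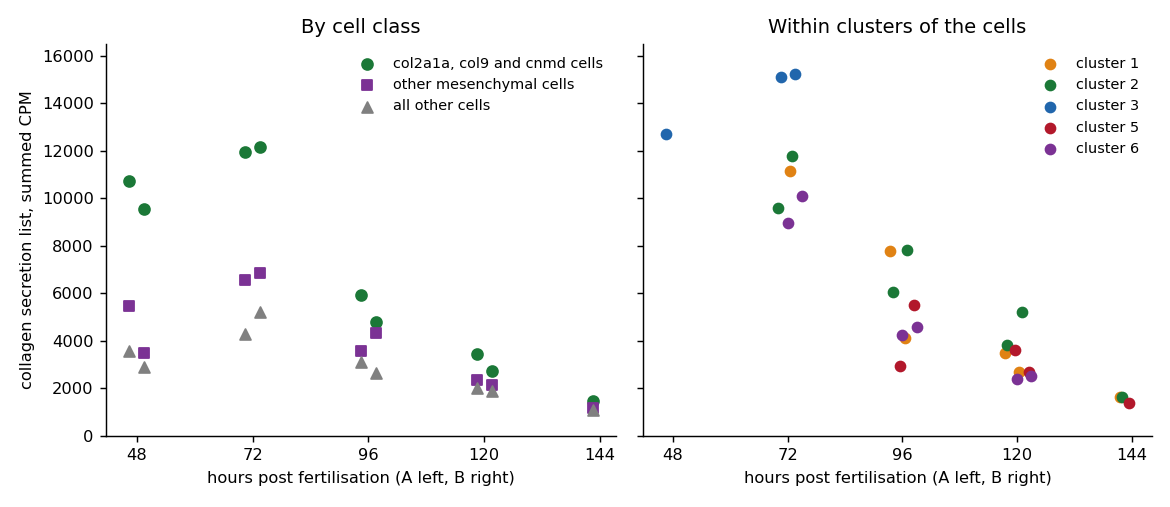
Summed level (CPM, y axis, from 0) of the collagen folding and export list by hours post fertilisation (x axis), 1 point per library, A drawn left and B right of each time. The left panel shows the members, other mesenchymal cells and all other cells, and the right panel 5 clusters of the members. The members lie between 9546 and 12152 CPM up to 72 hpf and at 1453 CPM at 144 hpf.

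Among the genes of the matrix itself no fall was called. The list of 18 tested cartilage matrix genes holds the 4 choosing genes. Of the other 14, 1 rose and 0 fell, near the 4.55% and 5.72% of all genes. Of their slopes 13 were positive, with a median of 0.53 against 0.01 over all genes, where 1757 of 3602 slopes were negative. The median share of the choosing genes in a member's UMIs was lowest in 48 hpf A, at 0.58%. In the other libraries with members it was 1.08 to 2.79%, and its part in these slopes was not tested. The gene that rose was ucmab, at 32.0 and 102 CPM at 48 hpf, 690 and 1348 CPM at 72 hpf, 2331 and 1224 CPM at 96 hpf, 3353 and 2108 CPM at 120 hpf and 1645 CPM at 144 hpf. Both 48 hpf libraries lay below all others, and the slope was 1.21 ± 0.33 (edgeR adjusted p = 0.032). This call was lost without any one of 48 hpf A, 48 hpf B, 72 hpf A, 120 hpf A or 120 hpf B. otos, which is on no list, was at 165 and 34.0 CPM at 48 hpf, 808 and 2576 CPM at 72 hpf, 3969 and 2768 CPM at 96 hpf, 6757 and 4981 CPM at 120 hpf and 4543 CPM at 144 hpf. It rose by 1.40 ± 0.32 log2 per 24 h (edgeR adjusted p = 0.017), a call that was lost without 48 hpf A, without the V2 libraries and without the 48 hpf libraries. Within cluster 2 alone, otos was at 12376 and 12368 CPM at 72 hpf, 16173 and 15631 CPM at 96 hpf, 18433 and 33169 CPM at 120 hpf and 24052 CPM at 144 hpf.

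The choosing genes had slopes of 0.23 to 0.60 log2 per 24 h with no call, given here as a description. The most abundant, col2a1a, was at 1189 and 7168 CPM at 48 hpf, 3824 and 24434 CPM at 72 hpf, 21279 and 27175 CPM at 96 hpf, 36936 and 9090 CPM at 120 hpf and 6989 CPM at 144 hpf. At 48 and 72 hpf, library B was several fold higher than library A, and at 120 hpf several fold lower. matn4, not used by the rule, was at 2909 and 3533 CPM at 48 hpf, 7340 and 11367 CPM at 72 hpf, 15782 and 9566 CPM at 96 hpf, 13940 and 4765 CPM at 120 hpf and 6611 CPM at 144 hpf, and its slope of 0.40 ± 0.21 missed the threshold (edgeR adjusted p = 0.26). For matn1 the slope was 0.41 ± 0.81 (0.79), with a standard error larger than the slope. Among the genes of the cell's sugar chains, ugdh, which makes the building block of glycosaminoglycans, fell by 1.01 ± 0.17 (0.0043), and papss2b, which makes the sulfate donor, fell by 0.69 ± 0.19 (0.038). Both were out of 6 proteoglycan genes tested, where 5.72% of all genes fell. The call of papss2b was lost without 7 of the 9 libraries when each was left out in turn, those kept being 72 hpf A and 96 hpf B. That of ugdh held when any single library was left out and was lost without the V2 or without the 48 hpf libraries.

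Of 14 tested genes of the perichondrium and fibrous tissue, 0 had a trend, where 10.3% of all genes had one. Type I collagen, the fibril of fibrous tissue, was represented by col1a1a at 924 and 3227 CPM at 48 hpf, 3844 and 7304 CPM at 72 hpf, 5294 and 3544 CPM at 96 hpf, 2993 and 1475 CPM at 120 hpf and 393 CPM at 144 hpf, and its slope was -0.27 ± 0.30 (edgeR adjusted p = 0.61). The level was highest in 72 hpf B and lowest in 144 hpf A, so a straight line describes it poorly. The fibronectin gene fn1b and the small proteoglycan gene ogna were called for any difference between time points (edgeR adjusted p = 0.030 and 0.042). They were 2 of the 14, where this test called 2.17% of all genes. fn1b led in cluster 7, at 3575 CPM against 38.7 CPM in the other members, and ogna in cluster 6, at 1617 against 101 CPM. Neither cluster held cells of 48 hpf.

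**Figure D5:**
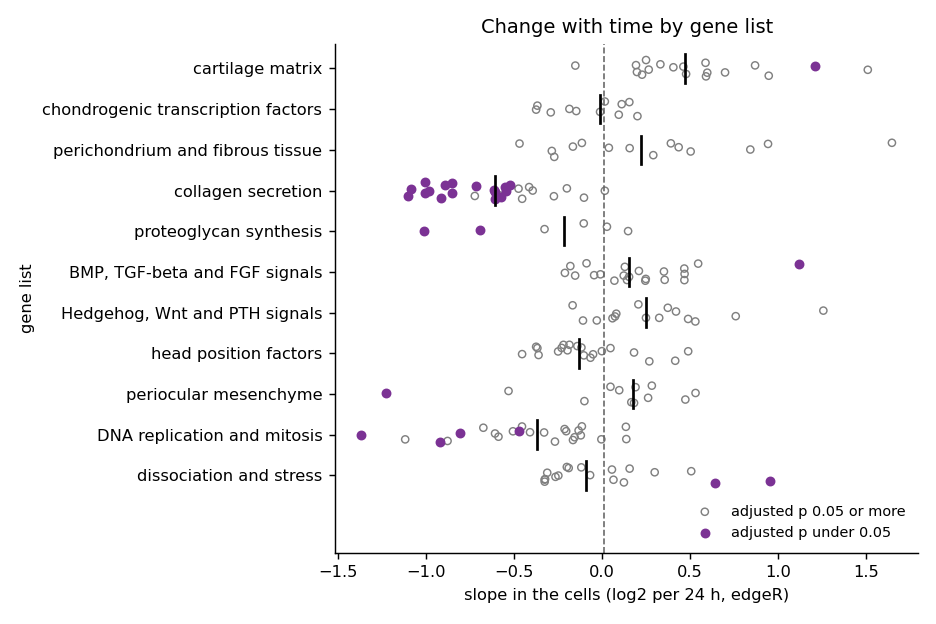
Slope of each tested gene of 11 lists in the members (x axis, log2 per 24 h, edgeR), 1 point per gene. Filled points passed an adjusted p of 0.05, short bars are list medians and the dashed line is the median of all 3602 genes. In the collagen folding list 17 of 27 genes fell, and in the cartilage matrix list, which holds the choosing genes, 1 of 18 rose.

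No chondrogenic regulator had a trend: 0 of 11 tested rose or fell, where 10.3% of all genes did, sox9a with a slope of -0.15 ± 0.34 and sox6 with -0.01 ± 0.27. barx1 was called only in the test of any difference (edgeR adjusted p = 0.0089), which called 2.17% of all genes. It was at 4.57 and 0 CPM at 48 hpf, 294 and 244 CPM at 72 hpf, 0 and 2.4 CPM at 96 hpf, 66.8 and 139 CPM at 120 hpf and 7.41 CPM at 144 hpf. Of cluster 6, 8 cells came from 96 hpf A and 12 from 96 hpf B, against 10 from 120 hpf A. Within this cluster barx1 was at 1238 and 773 CPM at 72 hpf, 0 CPM in both 96 hpf libraries, and 681 and 497 CPM at 120 hpf. The low level at 96 hpf was also measured inside the cluster. Its cells of 96 hpf differed in matn4 as well, at 18562.5 and 9108 CPM, against 1471 to 6194 CPM at 72 and 120 hpf. A change in the mix of cells inside the cluster was not tested. Of 20 tested factors of head position, 0 had a trend (10.3% of all genes), and six1a, a placode and craniofacial factor, had a slope of -0.07 ± 0.12. Among 12 genes of the periocular mesenchyme 1 fell, where 5.72% of all genes did. It was sox10, the neural crest factor, with a fall of 1.23 ± 0.35 (0.041). This call was lost when 48 hpf A, 48 hpf B, 72 hpf B, 96 hpf B, 120 hpf A or 144 hpf A was left out.

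Of 21 signalling genes of the BMP, TGF-beta and FGF pathways, 1 rose, a share near the 4.55% of all genes. The BMP antagonist nog1 was at 18.3 and 67.9 CPM at 48 hpf, 132 and 145 CPM at 72 hpf, 448 and 296 CPM at 96 hpf, 715 and 270 CPM at 120 hpf and 556 CPM at 144 hpf. Each library up to 72 hpf lay below each later one. Its slope was 1.12 ± 0.20 (edgeR adjusted p = 0.0049), against 0.28 ± 0.17 in other mesenchymal cells (0.26), and it was called under all 19 alternatives. The 2 slopes did not pass the test of their difference (edgeR adjusted p = 0.31). In contrast, the BMP targets id1 and id3 had slopes of 0.12 ± 0.14 and -0.18 ± 0.13. The Hedgehog target and antagonist hhip was 1 of 15 tested genes of the Hedgehog, Wnt and PTH list. It was called for any difference (edgeR adjusted p = 0.030), where 2.17% of all genes were, but not for a trend (0.050). It was at 22.9 and 0 CPM at 48 hpf, 176 and 297 CPM at 72 hpf, 1022 and 794 CPM at 96 hpf, 1358 and 373 CPM at 120 hpf and 400 CPM at 144 hpf.

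Of 24 genes of DNA replication and mitosis tested, 4 fell and 0 rose, with a median slope of -0.37. In other mesenchymal cells 14 of 27 fell, with a median of -0.72. Of all genes, 5.72% fell in the members and 7.55% in other mesenchymal cells. The 4 that fell in the members included the cyclins ccna2 and ccnb1, with slopes of -0.92 ± 0.20 (edgeR adjusted p = 0.015) and -1.37 ± 0.39 (0.043). The others were cdk1 with -0.81 ± 0.22 (0.037) and the chromatin protein hmgn2 with -0.47 ± 0.14 (0.049). The calls of cdk1 and hmgn2 were lost in most refits, that of ccna2 without 48 hpf A and that of ccnb1 without 96 hpf A or 144 hpf A. The replication genes pcna and mcm7 had slopes of -0.16 ± 0.16 and 0.14 ± 0.13 and were not called. Of the 18 stress and dissociation genes tested, 2 rose, where 4.55% of all genes did. They were gadd45bb, by 0.95 ± 0.16 (0.0039), and socs3a, by 0.64 ± 0.17 (0.028), and the call of socs3a was lost without 48 hpf A or 144 hpf A.

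The 10 steepest rising genes included lpin1 and klf9. lpin1, a phosphatidate phosphatase of fat synthesis, was at 4.57 and 0 CPM at 48 hpf, 4.90 and 18.6 CPM at 72 hpf, 110 and 74.5 CPM at 96 hpf, 237 and 252 CPM at 120 hpf and 778 CPM at 144 hpf. The time points did not overlap from 72 hpf on. It rose by 2.05 ± 0.18 log2 per 24 h (edgeR adjusted p = 0.00012). Close to it were klf9, a target of glucocorticoid and thyroid hormone receptors, at 2.07 ± 0.28 (0.0019), cebpd, a stress-responsive transcription factor, at 2.05 ± 0.29 (0.0023), pdk2b, a pyruvate dehydrogenase kinase, at 1.72 ± 0.21, and eif4ebp3, a brake on translation, at 1.63 ± 0.16. The others were igfbp1b, zgc:153704, cbx7a, si:ch211-202p1.5 and mgst1.2. Of these 10 genes, 9 were tested in other mesenchymal cells and 9 rose there, where 7.08% of all genes rose. In all other cells 4 of 10 rose, namely lpin1, zgc:153704, cbx7a and eif4ebp3, where 0.741% of all genes rose. In other mesenchymal cells lpin1 had a slope of 2.54 ± 0.27 (edgeR adjusted p = 0.00033) and klf9 one of 1.64 ± 0.26 (0.0034), and in all other cells lpin1 had a slope of 1.98 (0.028).

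The 10 steepest falling genes were led by stm, cldnb and agr2. stm, which encodes the otolith matrix protein starmaker, was at 306 and 4586 CPM at 48 hpf, 0 and 359 CPM at 72 hpf and at most 4.50 CPM in every later library. Of its 320 UMIs, single cells of 48 hpf A, 48 hpf B and 72 hpf B held 65, 133 and 79. The tight junction gene cldnb was at 320 and 272 CPM at 48 hpf and at most 27.8 CPM later, with a slope of -3.26 ± 0.32 (edgeR adjusted p = 0.00012). It too rested on few cells: 86 of its UMIs lay in 7 of the 116 cells of cluster 4, and no other cluster held more than 2. The adhesion gene epcam was at 210 and 510 CPM at 48 hpf and at most 76.0 CPM later. Both cldnb and epcam are epithelial genes. Of the epithelial list, epcam and cyt1l were the 2 of 10 tested genes that fell, where 5.72% of all genes did. The remaining genes were dnajb11, manf and fkbp11, which act in the endoplasmic reticulum and are on no list here, tubb5 and igfbp1a.

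Markers of other cell types were measured beside these results, and their part in them was not tested. The summed level of 15 epithelial genes was 2231 to 9275 CPM in the members, against 23633 to 85144 CPM in all other cells, and that of 17 retinal and neuronal genes 139 to 4519 CPM against 1170 to 9548 CPM. The 9 pigment genes found stood at 0 to 45885 CPM in the members, with 72 hpf B and 96 hpf A as the high libraries. The 12 vessel and mural cell genes found summed to 412 to 1527 CPM in the members and 77.1 to 360 CPM in all other cells. In other mesenchymal cells their sum was 173 to 1773 CPM. The defining lens and blood genes were at or near 0, with at most 36.6 and 67.9 CPM in any library, and of the annular ligament genes lxn rose by 1.54 ± 0.19 log2 per 24 h (edgeR adjusted p = 0.00086), as it did in other mesenchymal cells (1.43 ± 0.13). Without the 63 cells of clusters 8 and 9, 420 genes had a trend and the collagen folding list again had 17 falling genes, while the test of any difference called 243.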

How the data were processed

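The authors sequenced droplet libraries of sorted GFP+ cells and ran Cell Ranger 6.0 on GRCz11, per the methods and the submitters' notes. The deposited matrices hold raw UMI counts, 1 per time point, made by the authors, and were used as deposited. Libraries were read from the second column of the cell tables; the study calls the libraries of a time point biological replicates. The labels' protocol names v2 chemistry and the methods V3. A matrix joined over time points after subsampling of reads was not used. Of 16283 features, those with 1 symbol were summed to 15413. Total UMIs per library were 788648 to 15621511. Members and gene lists were chosen with earlier results of these data known. Of 8 mesenchymal genes listed, 5 had a symbol in the files, since col6a1, col6a2 and col6a3 did not match. Of 456 listed genes 410 were found.

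UMIs of members were summed per library (at least 10 members, genes with at least 50 UMIs) and tested with edgeR 4.0.16 in R 4.3.3 (TMM, quasi-likelihood, Benjamini-Hochberg over all genes, threshold 0.05). Slopes are log2 per 24 h with standard errors. The slope difference had the library as a block. Alternatives were DESeq2 1.42.0, its size factors, no filter, stricter rules, called doublets left out, each library and the V2 libraries left out, and the library letter as a block. The fits were first tested on simulated counts with a fixed spread and no library or batch effect. There the trend test recovered 52.0% of genes with a slope of 0.5 log2 per 24 h and 98.0% at 1, and the slope difference test 14.5% and 85.3%. Ratios within a library had 0.5 counts added. Named genes were members of the cartilage, position and periocular lists with at least 50 UMIs, the 4 most abundant and any called gene of the other lists, the 10 steepest called genes each way with a mean of at least 50 CPM, and the 20 genes highest over other cells with a mean of at least 100 CPM. For the text, values of abundant genes of other lists were given only where they bear on a result. mia, fn1b, tbx5a, the hox genes, stm and the cluster genes outside these lists were chosen after their values were seen. Clusters were made with scanpy 1.11.5 and leidenalg 0.10.2 (resolution 0.5, 20 components). Doublets were the cells with the highest Scrublet scores in each library, taken at a rate of 0.8% per 1000 cells. They were 175 of 12234 cells (1.43%) and 10 members, and they were kept.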

Additional observations from a re-analysis of the deposited data

How the results depend on the processing

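Limits: the trend rests on 9 libraries with 1 at 144 hpf, on clusters that differ between time points, and on library pairs with low member counts (23 in 48 hpf B). A single cell can carry most UMIs of a gene in a library. Library 48 hpf A is both a V2 and a 48 hpf library.

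The count of 370 genes with a trend was 567 with DESeq2, 87 without the V2 libraries, 118 without the 48 hpf libraries and 121 to 333 with 1 library left out (121 without 48 hpf A and 214 without 120 hpf A). With no filter on low counts 372 were called, of which 256 rose and 116 fell. The 78 genes with any difference became 227 with DESeq2, 470 with no filter, 144 with the choosing genes at 1% or more, 243 without the pigment-led and rx1-led clusters, 9 without the 48 hpf libraries and 17 to 323 with 1 library left out, each of them but 144 hpf A moving it by over 1.5 times. For the slope against other mesenchymal cells, 0 became 32 with DESeq2, 97 with no filter, 138 against all other cells, 19 with the choosing genes at 1% or more, 10 without the pigment-led and rx1-led clusters, 1 without the V2 libraries and 0 to 16 with 1 library left out. The 17 falling collagen folding genes were 9 with no filter, 5 without the V2 libraries, 11 without the 48 hpf libraries and 5 to 17 with 1 library left out. The members were 545 instead of 864 with the choosing genes at 1% or more. The cause of these shifts was not tested. Library letters do not pair the samples (correlations of same-letter deviations of -0.32 to 0.32); with the letter as a replicate block the trend called 334 genes and the test of any difference 34. Over 50 called genes, taken from the listed, steepest and leading genes only, 725 of 910 refits kept the call, 185 kept the direction only and 0 changed direction. Of all 370 called genes, between 81 (without the V2 libraries) and 351 (with DESeq2) were called again under an alternative.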
